A study of Mus musculus with 10 samples.

Results

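Cortical excitatory neurons and the layers they form were followed through 36 genes, chosen by name: transporters and transcription factors that define glutamatergic neurons of the cortex, and genes known to be concentrated in upper or in deep cortical layers. The deposited counts listed 53700 gene identifiers, and the 36 genes were found among them by matching their Ensembl identifiers to symbols of the GENCODE mouse annotation. All 36 had a total above 10 counts over the 10 libraries and were among the 19268 genes tested. By general knowledge of the cortex, 9 of them were placed in the upper layers, 13 in the deep layers, and 14 were left as broad or unassigned. Their summed counts made up 0.440% to 0.487% of the counts of a library.

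Excitatory neurons of the cortex are born in the dorsal forebrain and settle in layers, each with its own connections. Upper-layer cells project within the cortex and receive thalamic input, and deep-layer cells send axons to the thalamus, striatum, brainstem and spinal cord. Transcription factors such as CUX1, CUX2, FEZF2, BCL11B and TBR1 set these identities during development and stay expressed in the adult, so their transcripts serve as layer markers in bulk tissue. These genes are also of interest here because the Camk2a promoter, which drives Cre in the knockout, is active mainly in forebrain excitatory neurons.

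The samples were cortices of female mice aged 4 months, with 5 libraries labelled 5XFAD and 5 labelled 5XFAD;Neu cKO. All 10 carry the 5XFAD transgenes, human genes with familial Alzheimer's disease mutations under mouse Thy1 sequence, and the 5XFAD;Neu cKO mice were bred from floxed Idol and Camk2a-Cre lines to delete Idol (Mylip), a ubiquitin ligase for lipoprotein receptors, from neurons. The 5XFAD controls were littermates labelled wild type for this deletion. The sources used here do not state whether they carried floxed alleles or Cre. There was no group without the 5XFAD transgenes, and each library was taken as 1 mouse.

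Libraries were made with the QuantSeq 3′ kit, which reads each transcript near its 3′ end, and a count therefore does not grow with transcript length. They held 4320504 to 7466192 counts on genes, with a median of 5489735. Levels are given as CPM, the usual depth-scaled unit, with library sizes adjusted by TMM. The 36 genes held 0.440% to 0.452% of the raw counts in the 5XFAD libraries and 0.447% to 0.487% in the 5XFAD;Neu cKO libraries. After TMM their summed level was 4598 ± 192 and 4489 ± 138 CPM (SD, n = 5 each), so the direction of this sum depended on the scaling. Mylip itself had 45 to 108 counts in a 5XFAD library and 50 to 148 in a 5XFAD;Neu cKO library (log2 fold change 0.39, adjusted p = 0.777, edgeR). These are reads of the 3′ end summed over the gene, which do not tell a transcript with the deleted stretch from one without it, so they do not check the deletion, and every direction below refers to the labels. The markers that check the tissue as cortex were found in every library, where Slc17a7, Neurod2, Neurod6, Tbr1 and Cux2 had at least 144 counts each.

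None of the 36 genes differed between the groups at an adjusted p under 0.05 in edgeR's quasi-likelihood test, where 42 of all 19268 genes, or 0.218%, did. At an unadjusted p under 0.05 there were 5 of the 36 (13.9%), against 7.95% of all genes tested. Among genes with a mean of at least 10 CPM, which leaves out the least expressed, the counts were 5 of 31 members (16.1%) and 10.4% of all genes. These 5 were Sez6 and Slc17a6, whose means were lower where labelled 5XFAD;Neu cKO, and Neurod2, Crym and Otof, with higher means. In DESeq2, the tool of the authors, 1 member passed an adjusted p of 0.05, Sez6, against 0.379% of all genes.

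The direction of the differences was balanced. The log2 fold change, 5XFAD;Neu cKO against 5XFAD, was above 0 for 18 of the 36 genes, or 50%, as it was for 49.9% of all genes tested, and the median over the 36 was 0.0044 beside −0.00056 over all genes. Precision was good enough to bound most differences: the 95% interval of the log2 fold change lay between −0.5 and 0.5 (a change of less than 1.41-fold) for 25 of the 36. The other 11 were the 5 named above except Sez6, with the less abundant or more variable Rspo1, Scnn1a, Fezf2, Nxph4, Emx1, Stard8 and Grp. In bulk tissue, fewer cells of a type and less RNA per cell cannot be told apart, so each value below is a level of the whole cortex piece.

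**Figure D1:**
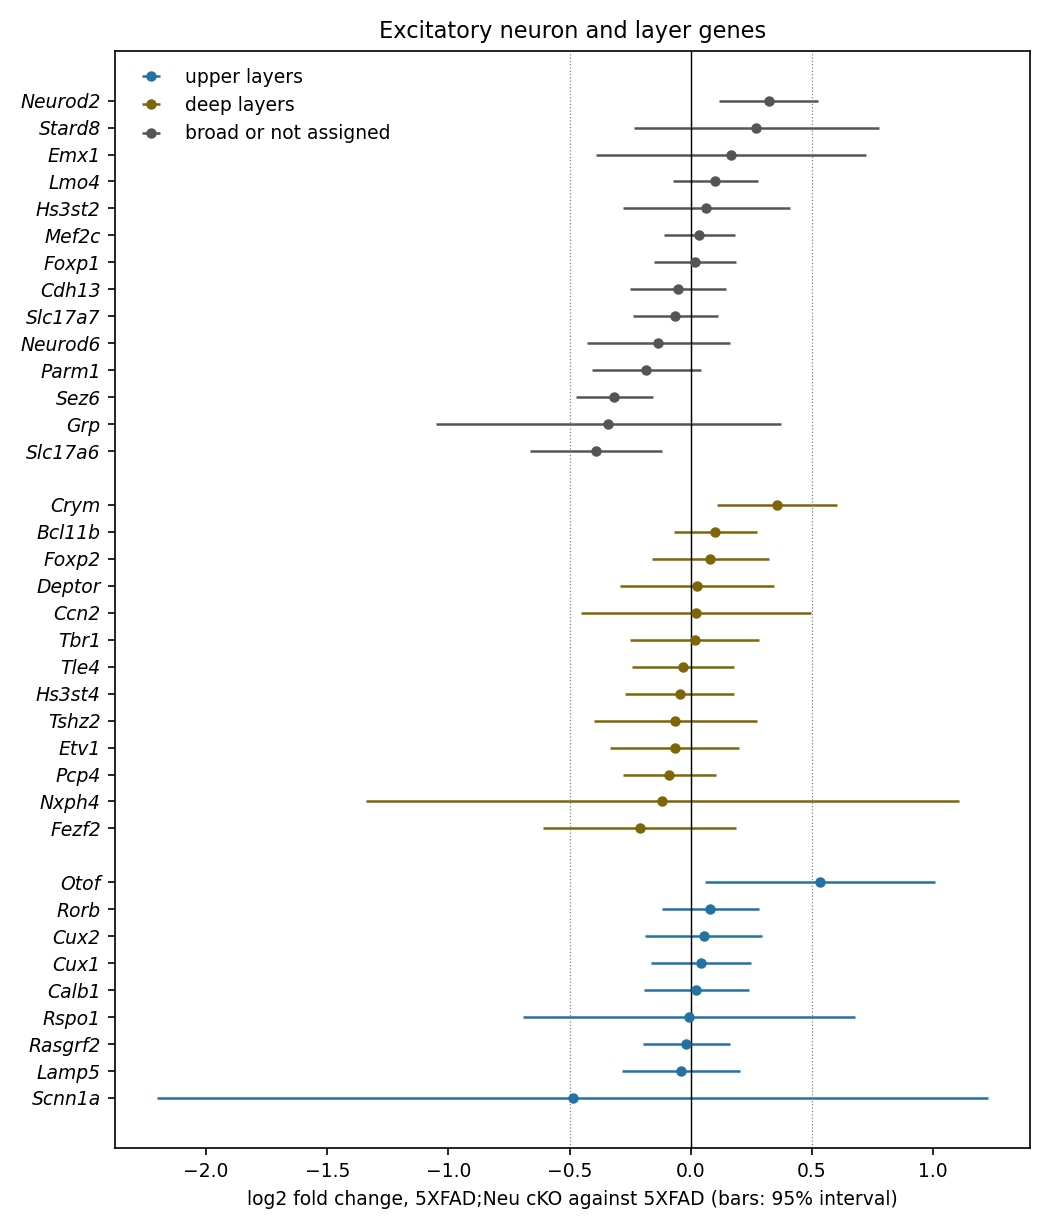
Log2 fold change of each of the 36 genes (horizontal axis, libraries labelled 5XFAD;Neu cKO against those labelled 5XFAD, n = 5 per group), with its 95% interval from edgeR as a bar and dotted lines at −0.5 and 0.5. Most points lie close to 0 in all 3 sets of genes, and the intervals of Neurod2, Sez6, Slc17a6, Crym and Otof leave out 0 before adjustment for multiple tests.

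Vesicular glutamate transporters, which fill synaptic vesicles, are the most direct markers of excitatory neurons. Slc17a7 (VGLUT1), the transporter of most cortical excitatory neurons, was at 207, 205, 180.3, 166 and 173 CPM in 5XFAD replicates 1 to 5 and at 178, 183, 173, 176 and 180.4 CPM in 5XFAD;Neu cKO replicates 1 to 5. The second set fell inside the range of the first and had the smallest spread of any member in either group, a coefficient of variation of 2.15%. Its means were 186 ± 18.6 and 178 ± 3.83 CPM (SD, n = 5 each), a log2 fold change of −0.06 with a 95% interval of −0.24 to 0.11 (adjusted p = 0.948, edgeR).

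Slc17a6 (VGLUT2; ENSMUSG00000030500, chromosome 7, 51271434 to 51320867, plus strand, GRCm39) is the transporter of thalamic and other subcortical excitatory neurons and is expressed at low level in adult cortex. It was at 42.8, 60.8, 49.9, 44.9 and 54.1 CPM in the 5XFAD libraries and at 37.8, 39.0, 43.5, 39.7 and 32.2 CPM in the 5XFAD;Neu cKO libraries. All but 1 of the 5XFAD;Neu cKO libraries lay below every 5XFAD library, the exception being replicate 3, just above 5XFAD replicate 1. The means of 50.5 ± 7.22 and 38.4 ± 4.08 CPM (SD, n = 5 each) gave a log2 fold change of −0.39 (standard error 0.14), which did not pass adjustment (adjusted p = 0.369, edgeR). The exact two-sided permutation test of its mean log2 CPM, over 252 relabellings, gave p = 0.0159. Because thalamic tissue at the edge of a cortex piece would carry this gene, the summed level of 8 thalamic genes was set beside it: 123 ± 10.1 CPM in the 5XFAD libraries and 119 ± 6.13 CPM in the 5XFAD;Neu cKO libraries, with 0 of the 8 past the threshold. Ntng1, at a mean of 63.5 CPM over the 10 libraries, was the largest part of this sum, which therefore says little about the scarcer of the 8. Gbx2, a defining thalamic factor, was at 0 in 3 libraries of each group. Whether residual thalamic tissue had a part in the Slc17a6 values was not tested.

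Sez6 (ENSMUSG00000000632, chromosome 11, 77821626 to 77869874, plus strand) encodes a membrane protein of dendrites and synapses that the protease BACE1 cleaves. It was 1 of the 2 most abundant members, at 869, 1065, 774, 930.2 and 805 CPM in the 5XFAD libraries and 804, 781, 608, 691 and 685 CPM in those labelled 5XFAD;Neu cKO. The 3 lowest values of all, those of replicates 3, 4 and 5, were in the 5XFAD;Neu cKO group, while its replicates 1 and 2 reached into the lower part of the 5XFAD range. The means were 889 ± 115 and 714 ± 79.4 CPM (SD, n = 5 each), a log2 fold change of −0.32 (standard error 0.08) and a 95% interval of −0.47 to −0.16. Its adjusted p was 0.0700 in edgeR and 0.0313 in DESeq2, and the exact permutation test gave p = 0.0317. The call turned on the settings and on single libraries: it passed in 3 of 7 alternatives that kept every library and in 3 of 10 that left one out, its adjusted p rising to 0.409 when 5XFAD replicate 2, the library with the highest level, was left out. A fit with the replicate number as a block is not among the 7 and is given at the end.

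Neurod2 (ENSMUSG00000038255, chromosome 11, 98216241 to 98220480, minus strand) encodes a basic helix-loop-helix transcription factor that postmitotic cortical excitatory neurons keep into adult life. Its level was 93.4, 85.2, 89.2, 79.8 and 90.4 CPM in 5XFAD replicates 1 to 5 and 95.9, 100.2, 112, 122 and 117 CPM in 5XFAD;Neu cKO replicates 1 to 5. Every library of the second group lay above every library of the first, which held for this 1 member of 36, beside 1.3% of all genes tested (1 of 31 members and 1.91% of genes at a mean of at least 10 CPM). The gap was narrow, between 93.4 and 95.9 CPM. The means of 87.6 ± 5.28 and 109 ± 11.2 CPM (SD, n = 5 each) gave a log2 fold change of 0.32 (standard error 0.10). The exact permutation p was 0.00794, the smallest that 252 relabellings can give, and the adjusted p was 0.274 in edgeR, which does not pass. None of 17 alternatives brought it past the threshold. Another annotated gene, Gm33099, lies within 1000 bases of its 3′ end.

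**Figure D2:**
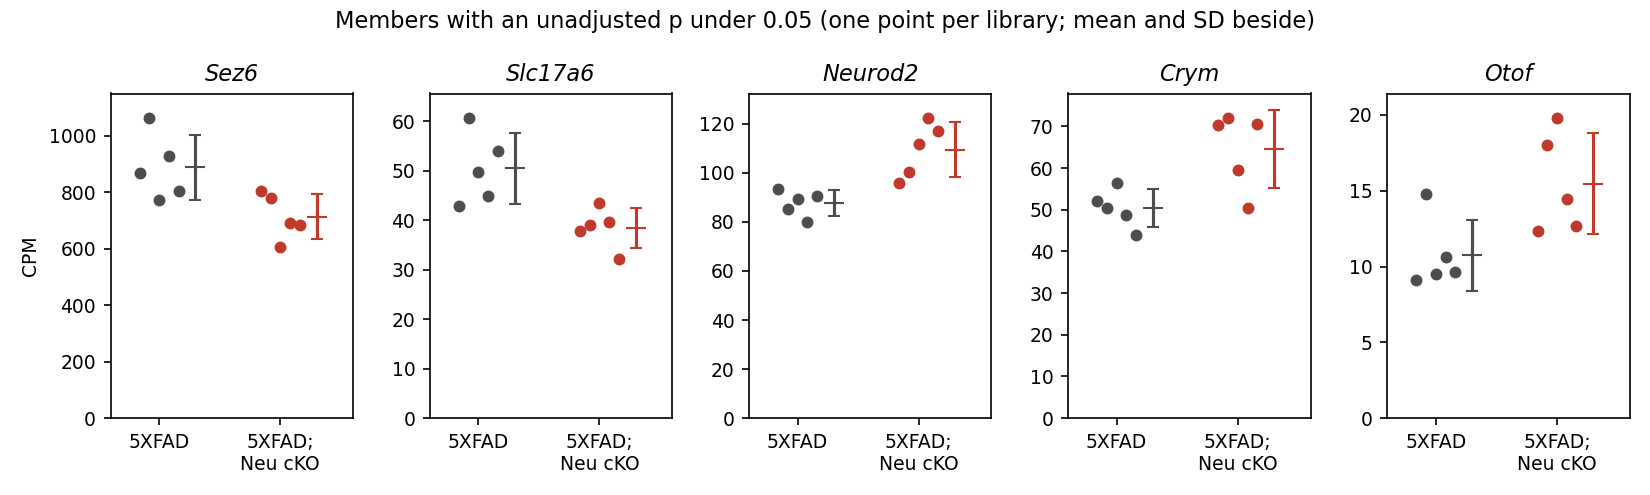
CPM of the 5 members with an unadjusted p under 0.05 in edgeR, one point per library and the mean with its SD beside each group of 5 (vertical axes from 0). The groups are separate only for Neurod2, and no member passed the adjusted threshold in edgeR.

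NEUROD factors bind the E-box CAGATG, and the members were searched for these letters, on either strand, in the 250 bases before the transcription starts that RefSeq gives (GRCm39). A window was at hand for 25 of the 36 genes, 37 windows in all, and 5 genes held the motif in 1 window each: Cux2, Etv1, Mef2c, Neurod2 and Slc17a6. That is 13.5% of the members' windows beside 14.4% of all 32851 windows. A match is only a run of letters and says nothing about binding in these cortices. The 2 stretches below are shown because they belong to the members of opposite direction just described, with the motif in capitals. That of Neurod2 lies at chr11:98220539-98220634 on the minus strand, upstream of the annotated gene, with the motif starting 118 bases before the RefSeq start. That of Slc17a6 lies at chr7:51274135-51274230 on the plus strand, inside the annotated gene and before a downstream RefSeq start, with the motif 205 bases from it.
Neurod2: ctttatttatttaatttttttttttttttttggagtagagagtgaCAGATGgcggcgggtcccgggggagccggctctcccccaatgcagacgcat
Slc17a6: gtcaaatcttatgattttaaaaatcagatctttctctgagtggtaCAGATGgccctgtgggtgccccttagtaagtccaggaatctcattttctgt

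Of the other broad factors, none stood apart. Mef2c, a MADS-box activator of neuronal and also microglial genes and with Sez6 the most abundant member, was at 778, 856, 843, 754 and 739 CPM in the 5XFAD libraries and 832, 733, 734, 919 and 849 CPM in the 5XFAD;Neu cKO libraries. The ranges overlapped almost wholly, with the highest value in 5XFAD;Neu cKO replicate 4 (log2 fold change 0.03, 95% interval −0.11 to 0.18). Lmo4, a LIM-only cofactor found in projection neurons of several layers, was at 330.0, 282, 381, 329.6 and 281 CPM and 343, 295, 348, 333 and 403 CPM in the same order. These 2 sets also overlapped (log2 fold change 0.10, interval −0.07 to 0.28). Neurod6, the close relative of Neurod2 in the same cells, had means of 46.4 ± 9.81 and 42.4 ± 8.41 CPM (SD, n = 5 each) and a log2 fold change of −0.13, of the opposite sign to Neurod2, with an interval of −0.43 to 0.16. Emx1, the homeobox gene of the dorsal forebrain, was low, at 5.78 to 14.8 CPM, with a log2 fold change of 0.16.

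The rest of this set also stayed short of the threshold. Foxp1, a forkhead factor of cortical and striatal projection neurons, had a log2 fold change of 0.02. The adhesion molecule Cdh13 stood at −0.05 and the heparan sulfate sulfotransferase Hs3st2 at 0.06. Parm1, a mucin-like membrane protein, had a log2 fold change of −0.18, with an unadjusted p of 0.107 in edgeR and an exact permutation p of 0.0397. The permutation p values are not adjusted for multiple tests, and the share of all genes under 0.05 in that test was not computed. Stard8, a GTPase-activating protein, ranged from 5.22 to 24.8 CPM with a log2 fold change of 0.27. Grp, the gastrin-releasing peptide, was at 4.47 to 15.0 CPM in the 5XFAD libraries and 2.36 to 8.79 CPM in the others (log2 fold change −0.34, interval −1.05 to 0.37). For all 36 genes the counts within a group varied by more than counting error, with a chi-square per degree of freedom from 2.95 for Hs3st4 to 43.0 for Sez6.

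Upper-layer genes numbered 9, of which 5 had a log2 fold change above 0 and 4 below, with a median of 0.02. The most abundant was Rasgrf2, a Ras exchange factor of layer II and III neurons, at 164, 152, 167, 141 and 149.7 CPM in the 5XFAD libraries and 147, 155, 146, 165 and 151 CPM in the 5XFAD;Neu cKO libraries. The values overlapped closely, for a log2 fold change of −0.02 and a 95% interval of −0.20 to 0.16, and such intervals follow in brackets below. Rorb, the nuclear receptor that marks layer IV, was at 127, 114, 108, 114 and 109 CPM and 139, 109.8, 102, 138 and 117 CPM in the same order. Its 5XFAD;Neu cKO libraries held both the highest values, in replicates 1 and 4, and the lowest, in replicate 3, and the log2 fold change was 0.08 (−0.12 to 0.28). Lamp5, a lysosomal membrane protein of upper-layer neurons and of a class of interneurons, was at 146, 84.9, 98.5, 112 and 92.2 CPM and 106, 77.6, 89.4, 138 and 108 CPM. Its spread was wide in both groups, with 5XFAD replicate 1 and 5XFAD;Neu cKO replicate 4 highest, and the log2 fold change was −0.04 (−0.29 to 0.20).

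The homeobox factors Cux1 and Cux2, which shape the dendrites of upper-layer neurons, had log2 fold changes of 0.04 (−0.16 to 0.25) and 0.05 (−0.19 to 0.29). Cux1 was at 94.2 to 109 CPM in the 5XFAD libraries and at 109 to 114 CPM in 4 of the 5XFAD;Neu cKO libraries, with replicate 3 apart at 80.6 CPM. Calb1, the calcium buffer calbindin, which interneurons also express, had a log2 fold change of 0.02 (−0.19 to 0.24).

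Otof (ENSMUSG00000062372, chromosome 5, 30524406 to 30619324, minus strand), the vesicle calcium sensor otoferlin, showed the largest log2 fold change of the 36 genes. It was at 9.11, 14.8, 9.51, 10.6 and 9.65 CPM in the 5XFAD libraries and 12.3, 18.0, 19.8, 14.5 and 12.6 CPM in the 5XFAD;Neu cKO libraries. Replicate 2 of the 5XFAD group, at 14.8 CPM, lay within the range of the other group, while its other 4 libraries were below it. The means were 10.7 ± 2.33 and 15.5 ± 3.33 CPM (SD, n = 5 each), a log2 fold change of 0.53 (edgeR's standard error 0.24 and adjusted p = 0.540). At 43 to 151 counts per library it was read thinly, and Drc1 and Gm43755 lie within 1000 bases of its 3′ end, where the reads fall.

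A pair of layer IV genes was scarce and varied widely between libraries. Rspo1, an R-spondin that enhances Wnt signalling, was at 8.53, 3.05, 7.20, 11.4 and 4.71 CPM in the 5XFAD libraries and 5.80, 4.78, 4.86, 11.8 and 7.76 CPM in the 5XFAD;Neu cKO libraries. Scnn1a, a sodium channel subunit used as a layer IV marker, was at 0.581, 0, 4.35, 3.36 and 0.224 CPM and 1.31, 0.184, 1.05, 3.70 and 0 CPM. Both were high in replicate 4 of each group, and both were low in 5XFAD replicates 2 and 5, whereas in 5XFAD;Neu cKO replicate 5 Scnn1a was at 0 with Rspo1 among the higher values. With 0 to 32 counts per library, Scnn1a gave no usable comparison of the groups (log2 fold change −0.49, 95% interval −2.20 to 1.23), and Rspo1 gave −0.01 (−0.69 to 0.68).

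Deep-layer genes numbered 13, with 6 log2 fold changes above 0, 7 below and a median of −0.03. Bcl11b (CTIP2), a zinc finger factor of layer V projection neurons and of striatal neurons, was at 308, 268, 273, 304 and 286 CPM in the 5XFAD libraries and 281, 353, 341, 253 and 318 CPM in those labelled 5XFAD;Neu cKO. The second group was the wider and took in both the lowest value, in replicate 4, and the highest, in replicate 2 (log2 fold change 0.10, 95% interval −0.07 to 0.27). Pcp4, a small calmodulin regulator of layer V and VI and of striatal cells, was at 163, 174, 170.5, 196 and 157 CPM and 138, 189.6, 167, 134 and 181 CPM. Here too the 5XFAD;Neu cKO libraries were the more spread, from replicate 4 at the bottom to replicate 2, and the log2 fold change was −0.09 (−0.28 to 0.10). Tle4, a corepressor of layer VI corticothalamic neurons, was at 80.8, 86.6, 84.2, 96.0 and 83.3 CPM and 83.6, 76.1, 89.1, 82.8 and 89.5 CPM. These ranges overlapped, and the log2 fold change was −0.03 (−0.24 to 0.18).

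Crym (ENSMUSG00000030905, chromosome 7, 119785530 to 119801514, minus strand), mu-crystallin, which binds thyroid hormone in the cytosol, was the deep-layer gene furthest from 0. It stood at 52.1, 50.4, 56.4, 48.8 and 44.0 CPM in the 5XFAD libraries and at 70.3, 72.1, 59.5, 50.5 and 70.5 CPM in the 5XFAD;Neu cKO libraries. In the second group, 4 libraries were above all 5XFAD libraries and replicate 4 was within their range. The means of 50.4 ± 4.53 and 64.6 ± 9.35 CPM (SD, n = 5 each) gave a log2 fold change of 0.36 (edgeR's standard error 0.12 and adjusted p = 0.373; exact permutation p = 0.0238). Another gene, Anks4b, lies within 1000 bases of the 3′ end of Crym. On the other side, Fezf2, the selector of subcerebral projection neurons, was at 24.2, 21.1, 24.7, 17.3 and 35.2 CPM and 19.8, 20.8, 30.1, 22.5 and 12.4 CPM. The 5XFAD;Neu cKO libraries spanned 12.4 to 30.1 CPM around most of the 5XFAD values, and the log2 fold change of −0.21 had an interval of −0.61 to 0.19. It ran from −0.38 without 5XFAD;Neu cKO replicate 3 to −0.05 without 5XFAD replicate 5, and was −0.07 without 5XFAD;Neu cKO replicate 5.

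None of the other deep-layer genes passed a threshold. Tbr1, the T-box factor that specifies corticothalamic neurons, had a log2 fold change of 0.02 (−0.25 to 0.28), the forkhead factor Foxp2 one of 0.08 (−0.16 to 0.32) and the sulfotransferase Hs3st4 one of −0.05 (−0.27 to 0.18), all known from layer VI. Ccn2 and Nxph4, a matricellular protein and a neurexophilin of the deepest layer, had log2 fold changes of 0.02 (−0.45 to 0.50) and −0.12 (−1.34 to 1.11), the latter on 4 to 26 counts per library. Among layer V genes, the ETS factor Etv1 stood at −0.07 (−0.33 to 0.20), the mTOR inhibitor Deptor at 0.02 (−0.29 to 0.34) and the zinc finger factor Tshz2 at −0.06 (−0.40 to 0.27).

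Upper against deep layers was the comparison that asked whether one tier of the cortex differed from the other. The summed level of the 9 upper-layer genes was 657 ± 37.7 CPM in the 5XFAD libraries and 670.4 ± 52.6 CPM in the 5XFAD;Neu cKO libraries (SD, n = 5 each), and that of the 13 deep-layer genes was 948 ± 42.5 and 966 ± 64.6 CPM. Their ratio, in the order of the replicate numbers, was 0.721, 0.705, 0.706, 0.644 and 0.690 for 5XFAD and 0.752, 0.633, 0.594, 0.850 and 0.667 for 5XFAD;Neu cKO. The means were 0.693 ± 0.0297 and 0.699 ± 0.102 (SD, n = 5 each), so the groups were centred alike while the 5XFAD;Neu cKO libraries held both the highest ratio, in replicate 4, and the lowest, in replicate 3. The deep-layer sum includes Bcl11b and Pcp4, with means of 299 and 167 CPM over the 10 libraries, which striatal neurons also express. The ratio is therefore not a measure of cortical layers alone. Replicate 4 of 5XFAD;Neu cKO had the lowest summed level of the striatal genes described below, 642 CPM, and replicate 3 had 725 CPM. What part striatal tissue had in the ratio was not tested. The median log2 fold change of the upper layers exceeded that of the deep layers by 0.05, and by 0.06 with both lists cut to 6 genes each that are less known from interneurons, striatum, thalamus, astrocytes or vessels. When one library at a time was left out, the upper-layer median ran from −0.03 to 0.10, the deep-layer median from −0.05 to 0.02 and the difference from 0.01 to 0.14, the last without 5XFAD;Neu cKO replicate 3.

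**Figure D3:**
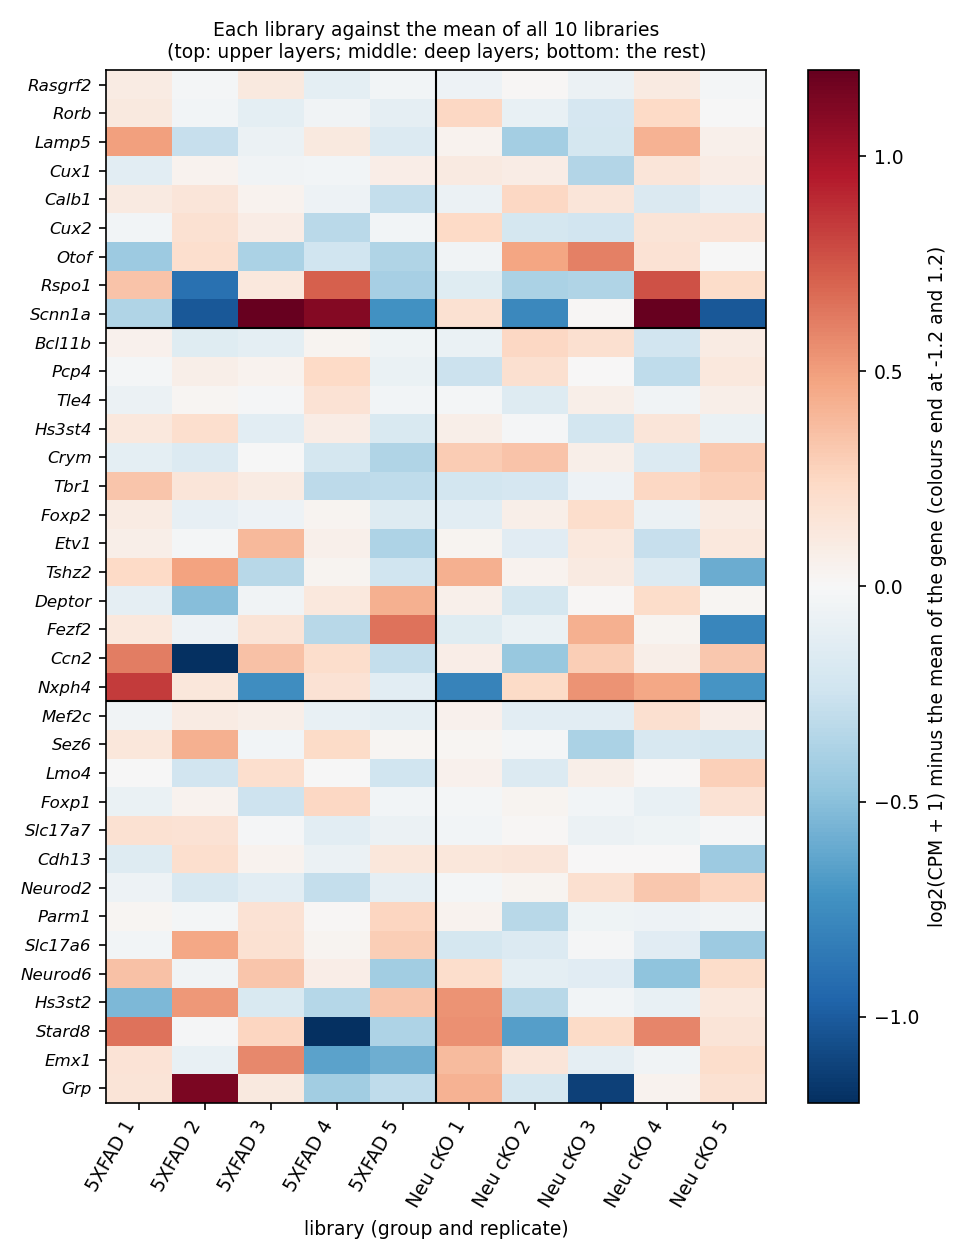
Level of each member in each library as log2(CPM + 1) minus the gene's mean over the 10 libraries (red above, blue below; colours end at −1.2 and 1.2), with genes ordered by mean level inside the upper, deep and remaining sets and the groups parted by a vertical line. The strongest colours belong to the scarce genes Scnn1a, Rspo1, Nxph4, Ccn2, Stard8 and Grp and follow single libraries, not the groups.

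Markers of the tissue beneath the cortex varied between libraries. The striatum lies under the cortex, and the summed level of 12 striatal genes, among them Drd1 and Ppp1r1b, was 701, 918, 719, 960.0 and 783 CPM in 5XFAD replicates 1 to 5 and 755, 1034, 725, 642 and 900.4 CPM in 5XFAD;Neu cKO replicates 1 to 5. The groups had about the same mean, 816 ± 117 and 811 ± 156 CPM, with 0 of the 12 past the threshold, but single libraries differed, 5XFAD;Neu cKO replicate 2 being highest and replicate 4 lowest. After the values had been seen, the mean log2 CPM of this list was fitted in edgeR beside the group, and its own slope was tested over all genes. At an unadjusted p under 0.05, 5 of the 36 members had a slope, against 3.99% of all genes tested, and none passed adjustment.

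These 5 were Stard8, with a slope of −2.32 log2 units per log2 unit of the list (adjusted p = 0.418, edgeR), Lamp5 (−0.78), Pcp4 (0.62), Foxp1 (0.50) and Sez6 (0.38). Of these, Pcp4 and Foxp1 are known from striatal neurons as well as from the cortex. Stard8 was lowest, at 5.22 and 9.38 CPM, in the 2 libraries with the most striatal signal, 5XFAD replicate 4 and 5XFAD;Neu cKO replicate 2. With the list as a covariate the log2 fold changes of Sez6, Neurod2, Slc17a6, Crym and Otof kept their signs, and none of the 36 genes passed the threshold. What part the dissection had in any of these values was not tested further.

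**Figure D4:**
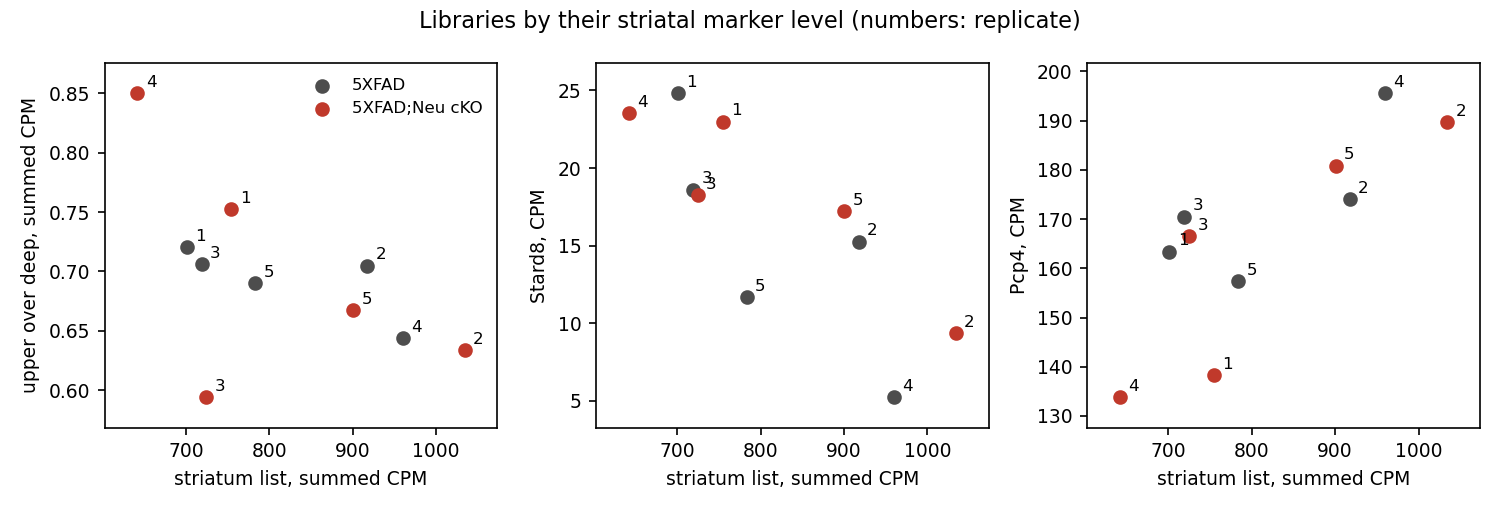
Measures of each library, namely the ratio of upper-layer to deep-layer summed CPM, Stard8 CPM and Pcp4 CPM, against the summed CPM of the 12 striatal genes (horizontal axes; numbers give the replicate, and axes do not start at 0). Libraries of both groups are spread over the whole range of the striatal signal, with the lowest Stard8 and highest Pcp4 at its upper end. The ratio is highest in 5XFAD;Neu cKO replicate 4, the library with the least striatal signal, and the ratio of 5XFAD;Neu cKO replicate 3 lies below the others.

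A further 25 genes of excitatory neurons were listed to see whether the members stood for the class, and 24 had enough counts. Of these 24, 16 had a log2 fold change above 0 and 8 below, a larger share above 0 than the 49.9% of all genes tested. Their median was 0.06, and none passed the adjusted threshold. Their summed level was about the same in the groups, 3549 ± 159 CPM in the 5XFAD and 3549 ± 121 CPM in the 5XFAD;Neu cKO libraries (SD, n = 5 each). The largest part of this sum was Camk2a, at a mean of 1823 CPM over the 10 libraries. Camk2a, the kinase gene whose promoter drives the Cre, was at 1689 to 2080 CPM in the 5XFAD libraries and 1653 to 1916 CPM in the 5XFAD;Neu cKO libraries, a log2 fold change of −0.07 (−0.20 to 0.07). At an unadjusted p under 0.05 there were 4 of the 24, beside 7.95% of all genes tested and 10.4% of those at a mean of at least 10 CPM. All 4 had higher means in the libraries labelled 5XFAD;Neu cKO. The largest of these differences was in Bhlhe22, a basic helix-loop-helix repressor of cortical projection neurons, at 21.5, 25.6, 30.4, 19.4 and 29.6 CPM and 34.4, 40.3, 32.4, 38.9 and 34.3 CPM. Its groups did not overlap, alone among the 24 and beside 1.3% of all genes tested (1.91% at a mean of at least 10 CPM). The log2 fold change of Bhlhe22 was 0.51 (edgeR's standard error 0.16 and adjusted p = 0.259). The others at that unadjusted p were Lhx2, a LIM homeobox factor (0.29), the nuclear receptor Nr4a2 (0.26) and Arpp21, a phosphoprotein of dopamine-responsive neurons (0.21).

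Genes of other cell types in the same libraries were set beside these values. All 12 microglial genes had lower means in 5XFAD;Neu cKO libraries. Csf1r, Cx3cr1, C1qb, C1qc, Ctss and Tyrobp passed the adjusted threshold in edgeR, the summed level being 474 to 696 CPM in 5XFAD and 323 to 411 CPM in 5XFAD;Neu cKO. Of 10 astrocyte genes 9 had lower means and Gfap passed, and of 10 oligodendrocyte genes all had lower means and Mal passed. Among 18 genes of inhibitory neurons, 11 had higher and 7 lower means and none passed, and none of 8 endothelial, 7 hippocampal or 5 choroid plexus genes did. Mef2c is also expressed by microglia, and what part the microglial difference had in its value was not tested.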

How the data were processed

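Per the paper's methods and the labels, the authors made QuantSeq 3′ FWD libraries from cortex RNA, trimmed them with bbduk, aligned them to GRCm39 with STAR 2.7.3a and counted reads per Ensembl gene with htseq-count (HTSeq 0.9.1 in the submitters' processing notes, another version in the methods). They deposited these counts per gene and library without normalization. The strand setting is not given in the sources used here, so overlapping genes are uncertain: Sez6 overlaps 1 gene on the other strand, Neurod2 2, and Slc17a6 1 on each strand.

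Symbols and places came from a later annotation of the same build, which named 52610 of 53700 identifiers. Genes with a total above 10 were fitted in R 4.3.3 with edgeR 4.0.16 (TMM, glmQLFit, glmQLFTest, condition only; common biological coefficient of variation 0.281), with Benjamini-Hochberg adjustment over 19268 genes and a threshold of 0.05. Single genes also had an exact two-sided permutation test of mean log2 CPM. The 36 members, the layer and marker lists and the rule for named genes were chosen with earlier results of these data known. Values in every library are given for members with an unadjusted p under 0.05 or separate groups, for the 3 most abundant genes of each set, for the 2 furthest from 0 in each layer list and for markers. Alternatives were DESeq2 1.42.0, its size factors, filterByExpr, no filter, a robust fit, removal of mitochondrial genes, a block by replicate number, the striatal list as a covariate, restricted layer lists and each library left out. Steps were tested on simulated data. Libraries of a group were no repeats of each other, their counts differing by a chi-square per degree of freedom of at least 5.70 in 20 pairs. The mitochondrial share of counts was 23.5%, 24.7%, 23.3%, 25.1% and 20.9% in 5XFAD replicates 1 to 5. It was 24.7%, 20.2%, 20.5%, 21.1% and 20.5% in 5XFAD;Neu cKO replicates 1 to 5, so most of that group lay lower. Depth limits the scarce members, whose values rest on few counts. One searched symbol of the hippocampal list, Pvrl3, was not matched. Some genes that the rule covers are left out of the text.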

Additional observations from a re-analysis of the deposited data

Results flagged for a closer look

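In 4 of 72 sets of 5 libraries (36 genes in 2 groups), 1 library stood far from the other 4, by a gap that chance gives in about 1 set in 20. Cux1 was at 80.6 CPM in 5XFAD;Neu cKO replicate 3, with the next library at 109 CPM. Cdh13 was at 117 CPM in 5XFAD;Neu cKO replicate 5, below the next at 159 CPM. Otof was at 14.8 CPM in 5XFAD replicate 2, above the next at 10.6 CPM, and Grp was at 15.0 CPM in the same library, above the next at 7.17 CPM.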

How the results depend on the processing

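With each library left out in turn, 0 to 1 of the 36 genes passed an adjusted p of 0.05, and Sez6 was the only one. Among the fits on all libraries, 1 member passed, again Sez6, with DESeq2 (73 of all genes called), with no filter on low counts (103), with a robust fit, and with the replicate number as a block (112), and 0 passed with the others. The adjusted p of Sez6 ran from 0.00296 under the block to 0.142 with filterByExpr, and over the fits that left out a library from 0.0194 to 0.409. The 42 genes called among all tested became 26 to 72 with one library left out: 26 without 5XFAD replicate 2, 27 without 5XFAD;Neu cKO replicate 4 or 5, and 72 without 5XFAD;Neu cKO replicate 1. The replicate numbers showed no sign of pairing the samples. For this, the log2 CPM of each library was taken as its deviation from the mean of its own group, over the 5000 most expressed genes. These deviations, not the levels, correlated at −0.0762 to 0.0447 between same-numbered libraries of the 2 groups. By this measure 0 of 5 correlated best with its own number. A pairing that touches few genes would not show in such correlations. The authors' fit had the group as its only term, and the result of the block is given here only. Of 665 values of the members and Mylip under the alternatives, 612 kept their direction and their side of the threshold, 7 passed it newly, all of Sez6, and 46 changed sign, in 19 members. Their log2 fold changes with one library left out ran as follows: Cux2 −0.0172 to 0.11, Rasgrf2 −0.0489 to 0.0118, Lamp5 −0.16 to 0.0961, Rspo1 −0.27 to 0.24, Scnn1a −1.43 to 0.22, Calb1 −0.0408 to 0.0666, Tle4 −0.0554 to 0.0100, Ccn2 −0.18 to 0.20, Nxph4 −0.35 to 0.25, Tshz2 −0.20 to 0.0599, Etv1 −0.16 to 0.0387, Deptor −0.0814 to 0.15, Tbr1 −0.0585 to 0.11, Hs3st4 −0.0945 to 0.00277, Mef2c −0.0129 to 0.0696, Foxp1 −0.0377 to 0.0915, Cdh13 −0.0961 to 0.0379, Hs3st2 −0.0833 to 0.22 and Grp −0.51 to 0.0332. Rspo1 also changed sign under the block, to 0.0289. The medians of the layer lists moved by less than the SD between libraries, within a group, of the list's mean log2 CPM. This SD was 0.24 for the upper and 0.10 for the deep layers. It is a wide yardstick, because leaving out a library shifts the mean of a group by only part of it. Staying within it therefore does not show that the medians are stable. Depth limits Scnn1a and Nxph4 most, with at most 32 and 26 counts in a library.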
